A study of Mus musculus with 2 samples.

Results

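The genes (9) that carry out the uptake, synthesis and breakdown of retinoids were described by the N6-methyladenosine (m6A) peaks that lie in them in the mouse uterus. Their members were chosen by name, and a peak was assigned to a gene when its summit, the position of highest enrichment, lay inside the gene's RefSeq span on mm10. By this rule 9 of the 38366 listed peaks belonged to these genes. The peaks came from methylated RNA immunoprecipitation sequencing (MeRIP-seq), in which RNA fragments bound by an anti-m6A antibody are compared with RNA sequenced without antibody, called the input. The immunoprecipitated (IP) group was 1 library of wild-type C57BL/6 whole uterus, labelled as an equal pool of gestation days 4 and 8. The input group was 1 library of C57BL/6 whole uterus taken without antibody, and its label names neither a day nor a pool. Every peak name carries a D8posIP-Neginput prefix, which mentions day 8 alone. No replicate existed in either group, so the values hold for these libraries alone and conditions could not be tested against each other.

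Retinol, which is vitamin A alcohol, travels in blood on the carrier protein Rbp4 and enters cells through the membrane receptor Stra6. Inside the cell Rdh10 oxidises retinol to retinal, the Aldh1a enzymes oxidise retinal to retinoic acid, Crabp2 carries retinoic acid to its nuclear receptors, and the Cyp26 enzymes of the cytochrome P450 family break it down. The mouse uterus makes retinoic acid locally, and Cyp26a1 is known from its epithelium around implantation. m6A is an internal mark of mRNA that is often dense near the stop codon and in the last exon.

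Of the 9 genes, 6 carried a peak, or 66.7% with an exact Clopper-Pearson 95% interval of 29.9 to 92.5. Of all 21787 protein-coding genes, 55.7% carried one, which lies inside that interval. With peaks of −log10 q of at least 5, the genes with a peak numbered 5 against 53.1% of all protein-coding genes, and with peaks of at least 4-fold they numbered 4 against 51.5%. All 4 synthesis genes had a peak, Rdh10, Aldh1a1, Aldh1a2 and Aldh1a3, with 7 peaks among them. Of the 3 genes of carriage and uptake, Stra6 had 1 peak and Rbp4 and Crabp2 had none. Of the 2 breakdown genes, Cyp26a1 had 1 peak and Cyp26b1 had none. A gene without a peak may lack the mark, lack the transcript or be covered too thinly, and these cannot be told apart from a peak list. In whole tissue, fewer cells of a type and less RNA per cell cannot be told apart either.

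Of the 9 peaks, 1 reached into a start window whose sequence was at hand, that of Aldh1a2, the main retinoic acid synthesising enzyme of the mouse embryo. The window covers 250 bases before to 50 bases after the annotated start, on the plus strand of GRCm38.p6 (mm10), chr9:71215539-71215838, and the sequence is from RefSeq. It is shown because the peak began 36 bases before the start and took in all 50 transcribed bases of the window. Capitals mark the 86 bases inside the peak.
Aldh1a2: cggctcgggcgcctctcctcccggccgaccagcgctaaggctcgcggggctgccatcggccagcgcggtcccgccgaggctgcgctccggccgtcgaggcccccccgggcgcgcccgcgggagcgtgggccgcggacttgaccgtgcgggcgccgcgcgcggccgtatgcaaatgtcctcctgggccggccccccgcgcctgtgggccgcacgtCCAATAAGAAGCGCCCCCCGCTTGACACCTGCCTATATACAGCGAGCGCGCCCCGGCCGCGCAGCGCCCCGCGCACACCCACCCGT
Bases G and C made up 70.9% of the capitals and 78.0% of the window, against a median of 52.7% over all 32851 RefSeq start windows. The letters GGAC, the core of the common m6A motif, occurred on neither strand of the capitals. In the whole window they occurred 1 time on the sense strand, from base 134, and 3 times on the antisense strand. Over all start windows, 65.6% held GGAC on the sense strand, 87.7% held it on either strand, and 18.9% held it on the sense strand of their last 50 bases. The last share covers 50 bases of 1 strand, so it is not a like background for the 86 capitals read on both strands. The summit itself lay 99 bases beyond the window, so the printed letters do not include it.

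The value of each peak is the authors' fold enrichment, the ratio of IP fragments to local background at the summit after the peak caller adds 1 to both. The labels do not state that IP and input shared their starting RNA, so in a fold m6A enrichment cannot be told apart from unequal transcript levels in the 2 samples, such as between days. The number of IP fragments and the background, in scaled fragments, were recovered from the deposited values. The interval given after a fold is the exact 95% Poisson interval of its IP count, taken at a fixed background, and it covers counting error only. Over all peaks the median was 6.16-fold (quartiles 4.62 and 8.32), with 29 IP fragments (quartiles 15 and 51) over a background of 3.33 (quartiles 1.24 and 8.03). Of the 9 peaks described here, 4 lay above that median fold and 5 below, and 7 had a background above the median. All 9 summits lay inside the span of 1 gene only.

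**Figure D1:**
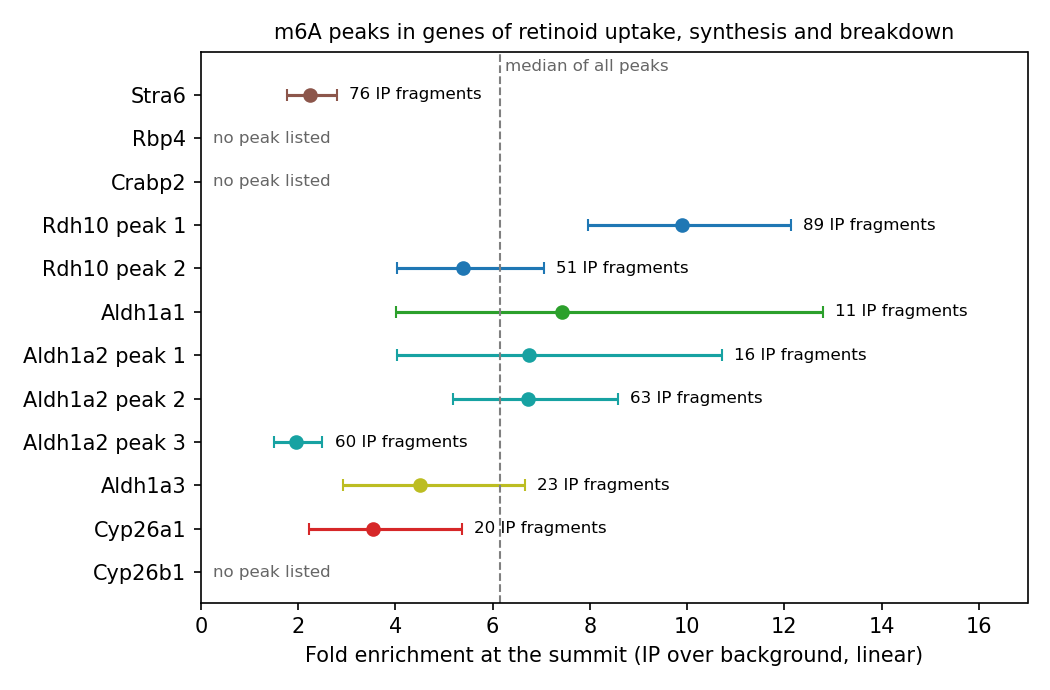
Fold enrichment at the summit of each peak (points, linear axis) with exact 95% Poisson intervals (bars) for the 9 genes, grouped as carriers, synthesis and breakdown, with IP fragments beside each. Rdh10 peak 1 was highest at 9.89-fold, Stra6 and Aldh1a2 peak 3 lay lowest, at 2.24-fold and 1.95-fold, and 3 genes had no listed peak.

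Among carriers and uptake, Stra6, the receptor that takes retinol from Rbp4 (NCBI Gene 20897, mm10 chromosome 9, 58063793 to 58154004), held 1 weak peak at 58153642 to 58153847. Its summit had 76 IP fragments over a background of 33.3, which gave 2.24-fold enrichment (1.77 to 2.80). Both the IP count and the background were high for the list, at the 88.3 and 98.8 percentiles of all peaks, while the fold stood at the 0.960 percentile. The summit lay 243 bases before the upper end of the span. Stra6 runs toward higher coordinates, so this is its 3′ end. The Stra6 span overlapped 1 other annotated gene, which did not hold the summit. The next summit lay just outside the span, 133 bases past that end and in no annotated gene. It had 66 IP fragments over a background of 22.2, or 2.88-fold (2.24 to 3.66), an interval that overlapped that of the Stra6 peak. The 4 RefSeq start windows of Stra6 put its starts well inside the span, from 58129088 to 58134665. Comparisons by span length below use the whole span.

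Rbp4, the retinol carrier of blood (Gene 19662, chromosome 19, 38116620 to 38125321), had no peak, and the nearest summit lay 43316 bases away in Cep55. Crabp2, the cellular retinoic acid-binding protein (Gene 12904, chromosome 3, 87948693 to 87953372), had none either, and the nearest summit lay 9368 bases away in Isg20l2. Both genes are short, at 8.70 kb and 4.68 kb. Of all protein-coding genes with a span of 5 to 10 kb, 51.5% carried a peak, and of those under 5 kb, 28.5% did. The share rose with span, to 64.9% at 25 to 50 kb, where Rdh10 and Aldh1a3 fall, 71.4% at 50 to 100 kb, with Stra6 and Aldh1a2, and 78.6% over 100 kb, with Aldh1a1. Neither span overlapped another annotated gene. The fewest IP fragments at any listed peak were 4, at the genome-wide background of 0.462. The number needed for a call rises with the background, and the list gives no background for genes without a peak.

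Rdh10, the enzyme of the first oxidation step (Gene 98711, chromosome 1, 16105882 to 16132550), carried the peak with the highest deposited fold of the 9, though not the highest ratio when the 1 added to both terms is left out (11.0 against 17.8 in Aldh1a1). This peak ran from 16105367 to 16106244 and was also the widest, at 878 bases. Its summit had 89 IP fragments over a background of 8.10, or 9.89-fold (7.96 to 12.1), at the 84.7 percentile of all peaks. The summit lay 82 bases inside the lower end of the span, and 515 bases of the peak lay outside the span. The second Rdh10 peak, at 16107610 to 16107865, followed 1896 bases from the same end. It had 51 IP fragments over a background of 8.65, or 5.39-fold (4.04 to 7.06). The backgrounds of the pair were close, and the intervals of their folds did not overlap.

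Aldh1a1, a retinal dehydrogenase (Gene 11668, chromosome 19, 20492583 to 20643463), held a single thinly covered peak, from 20571797 to 20571998. Its summit had a background of 0.618 and just 11 IP fragments, and its enrichment was 7.42-fold (4.01 to 12.8). Its IP count was the lowest of the 9 peaks and stood at the 14.5 percentile of the list. RefSeq gives Aldh1a1 a pair of start windows, and the summit lay between them, 79224 bases after the first start and 30161 bases before the second. It was therefore far from every start and end of the gene listed here. The Aldh1a1 span overlapped 3 other annotated genes, none of which held the summit. Aldh1a7, a close paralog on the same chromosome that could share reads with Aldh1a1, had 0 peaks, and whether reads were shared was not tested.

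Aldh1a2 (Gene 19378, chromosome 9, 71215789 to 71296243) had the most peaks, 3, spread from one end of its 80.5 kb span to the other. The first, at 71215753 to 71215958, is the one that enters the start window printed above. Its summit lay 148 bases after the start and had 16 IP fragments over a background of 1.52, or 6.75-fold (4.03 to 10.7). The second, at 71252424 to 71252939, lay 36764 bases after the start and was more deeply covered, with 63 IP fragments over a background of 8.52, or 6.72-fold (5.19 to 8.57). These peaks had nearly the same fold, and the interval of the second was the narrower. The third, at 71295777 to 71296027, lay 275 bases before the 3′ end. It had 60 IP fragments over a background of 30.3, or 1.95-fold (1.50 to 2.50), below the intervals of both others and at the 0.335 percentile of all peaks. No other annotated gene overlapped the Aldh1a2 span.

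Aldh1a3, the third retinal dehydrogenase (Gene 56847, chromosome 7, 66390892 to 66427477), held 1 peak spanning 66392420 to 66392701. The summit had 23 IP fragments over a background of 4.32, or 4.51-fold (2.93 to 6.67), and lay 1626 bases from the lower end of the span.

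**Figure D2:**
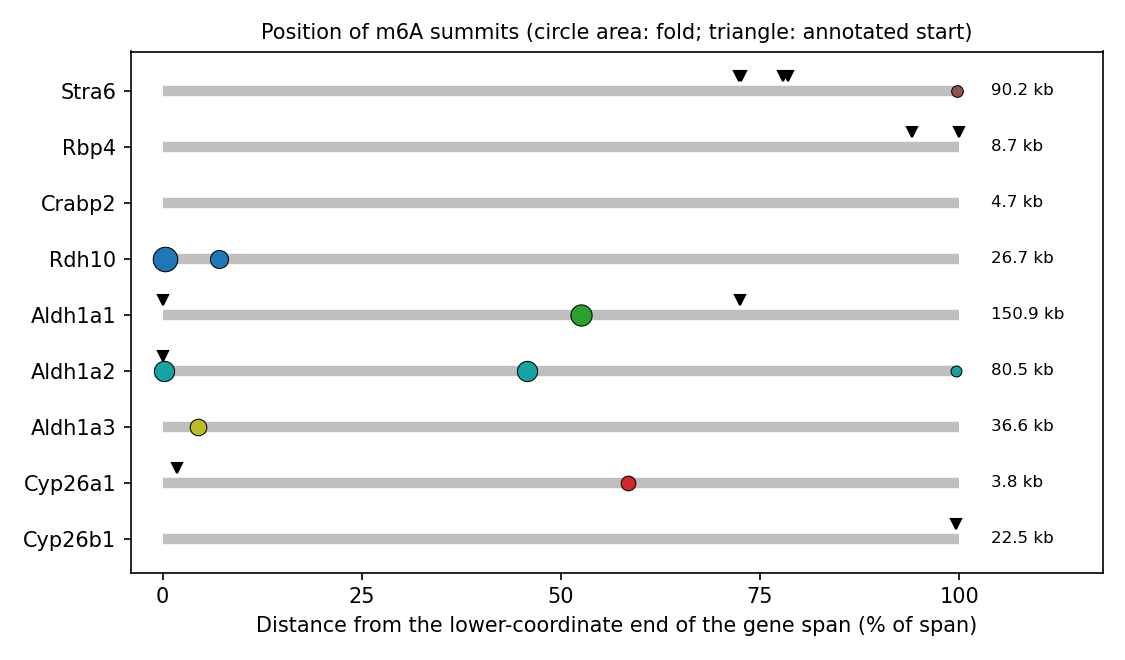
Position of each m6A summit along its gene span, in percent of the span from the lower-coordinate end, with circle area proportional to fold, triangles at RefSeq starts where the start table has one, and span length in kb at the right. The summits, in Stra6, Rdh10, Aldh1a3 and Aldh1a2 (peaks 1 and 3), lie toward an end, while Aldh1a2 peak 2 and the Aldh1a1 and Cyp26a1 summits lie at 45.7%, 52.5% and 58.5% of their spans.

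Cyp26a1, which clears retinoic acid (Gene 13082, chromosome 19, 37697738 to 37701536), held 1 peak spanning 37699803 to 37700005 despite the shortest span of the 9 genes, 3.80 kb. It had 20 IP fragments over a background of 4.94, or 3.54-fold (2.22 to 5.37), and its −log10 q of 4.85 stood between that of Aldh1a2 peak 3, at 3.95, and that of Stra6, at 7.66. The summit lay 2150 bases after the annotated start and 1578 bases before the upper end. Cyp26b1, a second enzyme of the same reaction (Gene 232174, chromosome 6, 84571414 to 84593908), had no peak in 22.5 kb. Of all protein-coding genes of 10 to 25 kb, 59.2% carried one. The nearest summit to Cyp26b1 lay 8488 bases past its upper end in no annotated gene, with 7 IP fragments at the genome-wide background.

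Ordered by the highest peak, the genes ran Rdh10, Aldh1a1, Aldh1a2, Aldh1a3, Cyp26a1 and Stra6. With nothing added to IP fragments or background, Aldh1a1 came first at a ratio of 17.8 (8.89 to 31.9) and Rdh10 second at 11.0 (8.82 to 13.5), with overlapping intervals and the other 4 genes in the same places. No neighbours in this order had intervals apart (0 of the 5 steps between them). Over all 15 pairs of the 6 genes, 6 had intervals that did not overlap. Rdh10 stood above Aldh1a3, Cyp26a1 and Stra6, and Stra6 stood below Rdh10, Aldh1a1, Aldh1a2 and Aldh1a3. Taking each gene's highest peak, the median was 5.63-fold over the 6 genes, against 8.04 (quartiles 5.85 and 10.9) over all 12134 protein-coding genes with a peak. Rdh10 was the 1 gene of the 6 above that median, and 5 lay below it. With nothing added to either term, Aldh1a1 was the 1 gene above the all-gene median of 12.04 and Rdh10 was among the 5 below it. The members with a peak had a median of 1 peak each, and all peak-carrying protein-coding genes had a median of 2.

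The lowest folds of the 9 peaks stood at the highest backgrounds, and the background is itself the divisor in a fold. Stra6 and Aldh1a2 peak 3, the lowest by fold, had the highest backgrounds of the 9 peaks, 33.3 and 30.3, and had more IP fragments than 7 and 5 of the others. Aldh1a1, second by fold among the genes, had the lowest background, 0.618. The order did not hold throughout. Rdh10 peak 1, the highest by fold, had a background of 8.10, above those of Aldh1a3 (4.51-fold at 4.32) and Cyp26a1 (3.54-fold at 4.94). Both high-background summits lay within 300 bases of a 3′ end. Without replicates, the error of the background was not measured.

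**Figure D3:**
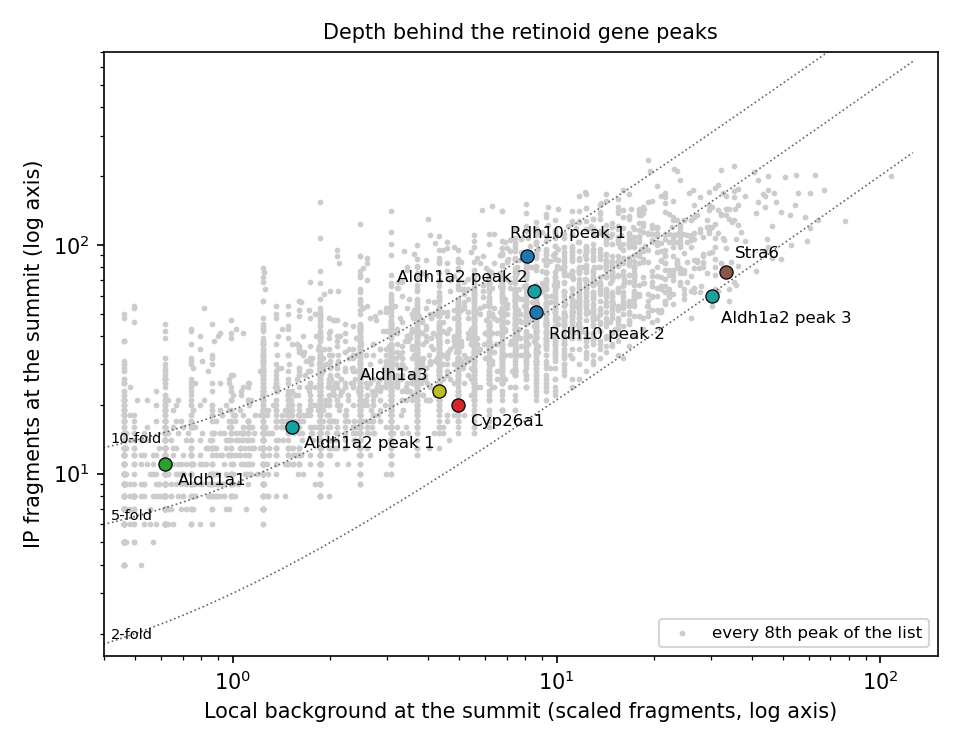
IP fragments against local background at the summit (both log axes) for the 9 retinoid gene peaks (coloured) and every 8th peak of the list (grey), with dotted lines at 2-fold, 5-fold and 10-fold. Aldh1a1 lies at the thin end with 11 IP fragments, and Stra6 and Aldh1a2 peak 3 lie near the 2-fold line at backgrounds above 30.

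Distance to the span ends was not part of the rule. Of the 9 summits, 4 (44.4%) lay within 500 bases of an end, those of Stra6, Rdh10 peak 1 and Aldh1a2 peaks 1 and 3. Of all 34640 pairs of a summit and a protein-coding span that holds it, 16.3% did. With 9 summits in 6 genes of unequal length this is a description, and exon and stop codon positions were not used here.

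The rest of the retinoid pathway, 31 further genes, carried 60 peaks in 20 genes (64.5%, exact Clopper-Pearson interval 45.4 to 80.8), again near the 55.7% of all protein-coding genes. The median of their highest fold was 8.75. The highest was Dhrs9 at 14.4-fold (10.4 to 19.4), a dehydrogenase of retinol, at a summit inside 2 gene spans. Fabp5, a fatty acid-binding protein that also binds retinoic acid, followed at 13.4-fold (9.42 to 18.6). Rdh14, a retinol dehydrogenase, reached 12.2-fold (8.23 to 17.4). Rara, the retinoic acid receptor alpha, reached 11.7-fold (8.83 to 15.2) and held 10 peaks. Rarb also held 10, in a span of 651 kb, while the 20 genes with a peak had a median of 2 each. Lrat, which esterifies retinol for storage, reached 11.5-fold (8.65 to 14.9), also at a summit inside 2 gene spans.

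The counts by role are small and stand beside the 55.7% of all protein-coding genes that carried a peak. That share lay inside the exact Clopper-Pearson intervals of 35.9 to 99.6% for 5 of 6 genes and 28.9 to 82.3% for 8 of 14. By role, 5 of 6 binding and transport genes had a peak, all but Rbp2. These included Crabp1, the relative of Crabp2, at 9.80-fold (5.65 to 16.0) from 14 IP fragments. Of 14 dehydrogenases and reductases 8 had one, and Rdh5, Rdh12, Rdh16, Adh4, Adh7 and Aldh8a1 had none. Among the 2 storage genes Dgat1 had none, and among the 2 carotenoid-cleaving genes Bco1 had a peak and Bco2 had none. Cyp26c1, the third breakdown enzyme, had none, so 1 of the 3 Cyp26 genes carried a peak. Of 6 nuclear receptor genes 5 had one, with Rarb at 9.40-fold, Rxrb at 4.76-fold, Rxra at 4.46-fold and Rarg at 3.92-fold, and Rxrg had none.

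**Figure D4:**
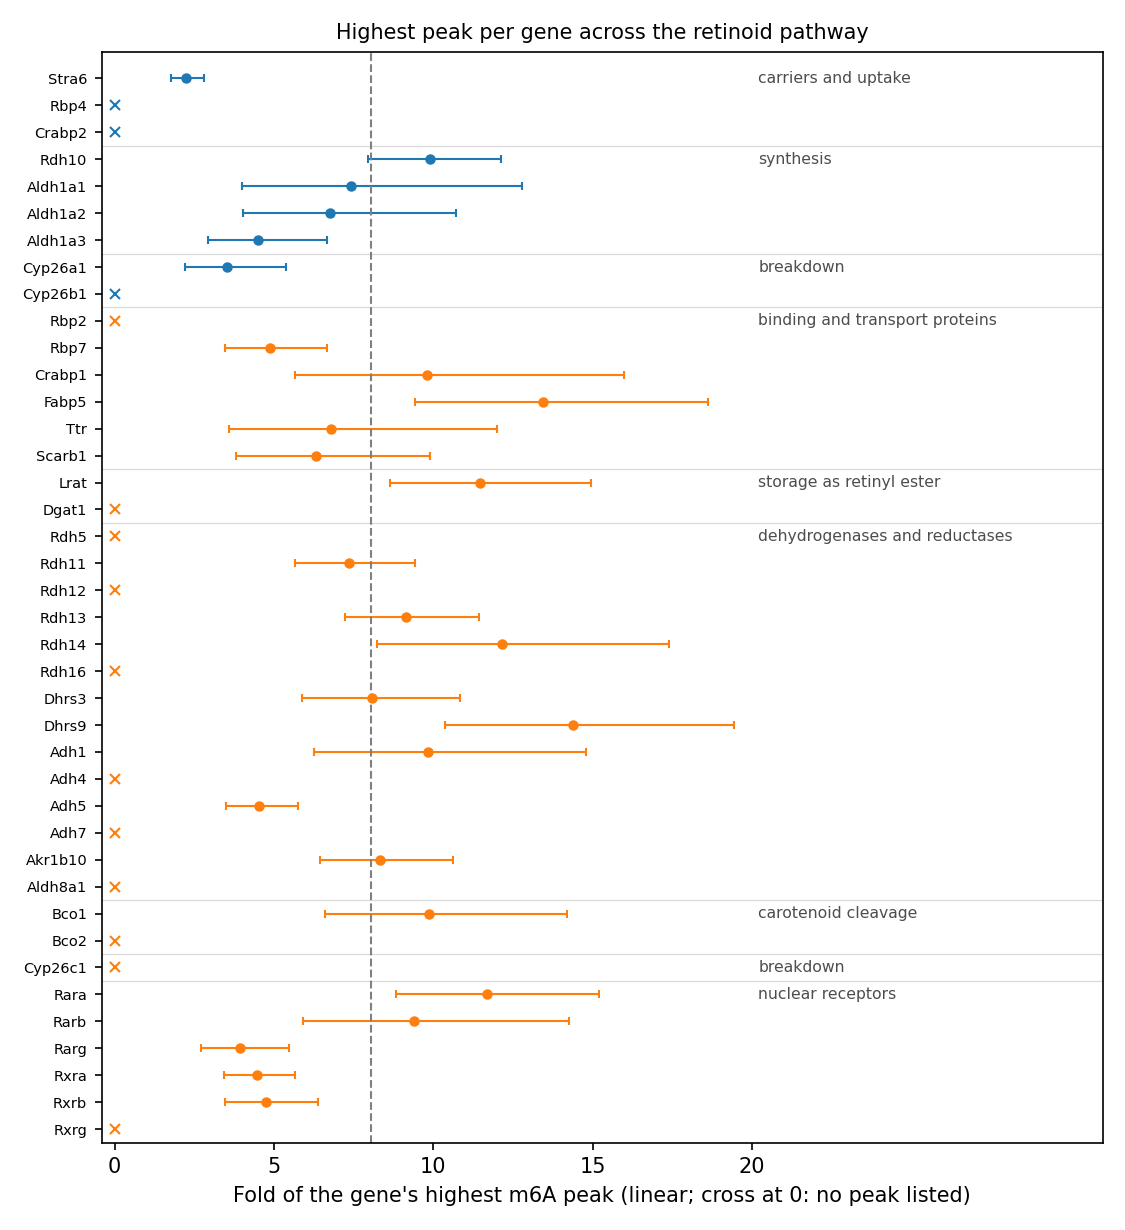
Fold of the highest peak per gene (points, linear axis) with exact 95% Poisson intervals (bars) for the 9 genes (blue) and the 31 other pathway genes (orange), grouped by role, with a cross at 0 where no peak is listed and a dashed line at 8.04, the median of all peak-carrying protein-coding genes. Of the 9 genes, Rdh10 is the 1 whose point, with the caller's added fragment, lies to the right of the line.

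Enzymes that make and inactivate steroids were set beside them as a like set of small-molecule enzymes. Of 22 listed, 21 matched a RefSeq symbol and 8 of these had at least 1 peak, which is 38.1% (18.1 to 61.6, Clopper-Pearson). The share of all protein-coding genes, 55.7%, lay inside that interval. The median highest fold of the 8 was 6.03, against 8.04 over all protein-coding genes with a peak. The 8 steroid genes were led by Por, the electron donor of cytochrome P450 enzymes, at 11.8-fold. Hsd11b1, which activates glucocorticoids, followed at 9.80-fold, and Cyp11a1, the side-chain cleavage enzyme of steroid synthesis, at 7.02-fold. The intervals of the 9 and of the 21 shares overlapped, and no difference between the sets was tested.

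Marker genes of several cell types were looked up by the same rule, under which 55.7% of all protein-coding genes carried a peak. All 20 markers of uterine stroma, epithelium, smooth muscle and endothelium carried a peak, and 1 of 5 markers of embryo and trophoblast did, Hand1. All 3 hepatocyte markers also carried a peak. Their highest folds were 6.66 (4.09 to 10.3) for Alb, 9.05 (6.41 to 12.4) for Apoa1 and 4.95 (2.36 to 9.53) for Serpina1a. These rested on 18, 36 and 7 IP fragments, against a median of 29 over all peaks. Because every uterine wall marker and every hepatocyte marker had at least 1 peak, counts of genes with a peak cannot check the labelled tissue. Depth was not compared between these marker sets. The part of the hepatocyte markers in the retinoid results was not tested.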

How the data were processed

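Total RNA was extracted with TRIzol and made into strand-keeping libraries with an NEBNext kit, per the labels' protocols. HISAT2 2.2.1 and MACS3 3.0.0a7 were used with mm10, per the submitters' processing notes, with no settings stated in the labels. The 1 peak list used was deposited with the fold enrichment ratio, the −log10 p-value and −log10 q-value, and a display score that was not used. Start, end and summit were deposited counted from 0 and are printed counted from 1. The list has no strand. IP fragments k and background were recovered from the fold, taken as (k + 1)/(background + 1), together with the p-value, taken as a Poisson upper tail above k. Recomputed and deposited −log10 p differed by at most 0.001 in 100% of peaks. In 2000 simulated peaks made with these same formulas k was recovered at 100%, which checks the inversion alone and not the formulas. Library totals were not at hand, so depth is known per peak only. Scaffold rows were left out, leaving 49632 RefSeq genes of GRCm38.p6, 21787 protein-coding, matched by symbol. The sequence used was that of the RefSeq start windows, which matched 6 of the 9 genes, and the sequence of the peaks outside them was not used here. The members and lists were chosen with earlier results of these data known. All 9 genes were to be named, with the 5 highest of the other pathway genes, genes with or without a peak by role where at most 12, and the 3 highest steroid enzymes. Of the planned pathway list, 1 item is not reported here. Crabp1, Rarb, Rxrb, Rxra and Rarg were given values, and Aldh1a7 and neighbouring genes were added, with the values in view. Alternatives are in the closing section. Tables were made with pandas 2.3.3 and numpy 2.4.6, intervals with scipy 1.17.1 and plots with matplotlib 3.10.9, in Python 3.11.15.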

Additional observations from a re-analysis of the deposited data

How the results depend on the processing

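The count of 6 genes with a peak stood at 5 with −log10 q of at least 5, where Cyp26a1 was lost and 53.1% of all protein-coding genes remained called. It stood at 4 with a fold of at least 4, where Stra6 and Cyp26a1 were lost, the 4 synthesis genes kept a peak and 51.5% of all genes were called. Their peaks numbered 7 and 6 under these settings. Requiring 50% of the peak inside the span left 8 peaks and removed the highest Rdh10 peak, which reaches outside it, so the highest Rdh10 fold was then 5.39. Aldh1a1 at 7.42 and Aldh1a2 at 6.75 then stood ahead of Rdh10. All 6 genes then lay below the all-gene median of 8.04 under the same link. The median of the highest fold ranged from 4.95 to 7.08 over the peak thresholds and links, and was 7.93 with nothing added to either term, against 12.04 for all peak-carrying protein-coding genes computed alike. In that setting, whose use for the order was chosen after seeing the data, 4 of 6 genes kept their place, and Aldh1a1 stood at 17.8 in place of 7.42, ahead of Rdh10 at 11.0. With −log10 q as score, 2 of 6 genes kept their place in the order, since Aldh1a2 passed Aldh1a1 and Stra6 passed Cyp26a1. The other pathway counts ranged from 17 to 21 and the steroid counts from 6 to 8. No paired analysis was possible because each group holds 1 library, and no library could be left out. Depth limits the Aldh1a1 and Aldh1a2 peak 1 values most, at 11 and 16 IP fragments.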
